A study of Sus scrofa with 41 samples.

Results

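The genes described here are the pig splicing factors and RNA helicases named HNRNP, SRSF, SF3A, SF3B and DDX, taken by Ensembl symbol with DDX3Y left out. The name table held 66 such symbols and 61 of them had counts, out of 25880 genes in all: 14 HNRNP, 10 SRSF, 6 SF3 and 31 DDX genes. SRSF4, HNRNPH2, DDX19A, SF3A2 and SF3B5 were not analysed here, and neither were 11 further genes whose symbol was not paired with an Ensembl identifier, among them SF3B1, DDX17 and HNRNPC.

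Heterogeneous nuclear ribonucleoproteins (the HNRNP genes) coat nascent RNA and often repress exons, whereas the serine and arginine rich proteins (the SRSF genes) bind exonic enhancers and often favour inclusion. SF3A and SF3B are the protein complexes with which the U2 particle settles on the branch point of an intron. DEAD-box helicases (the DDX genes) spend ATP to open or clamp RNA during splicing, export, ribosome assembly, translation and decay, and in skeletal muscle many sarcomere transcripts are alternatively spliced.

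The samples were 1 library of polyA RNA from the psoas major muscle of each of 41 uncastrated male pigs, 13 Danbred Duroc and 28 Danbred Landrace, all fed freely and slaughtered at about the same body weight. Each pig came with its feed conversion ratio (FCR, as labelled), its RNA integrity number (RIN, a scale on which intact RNA scores high), its age and one of 5 batches. Age ran from 131 to 156 days in the Duroc and from 147 to 166 days in the Landrace pigs, and FCR from 1.83 to 2.18 and from 1.92 to 2.25. The introduction of the study defines FCR as feed eaten per weight gained, and its results read a lower FCR as better efficiency. Values of this size belong to that definition. Its methods give the inverse in more than 1 sentence. A passage of its results says that pigs of lower FCR needed longer to reach their end weight. No treatment was given, so every contrast is between pigs as they were, and p-values measure the spread between animals. Muscle was taken right after slaughter.

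Landrace pigs were older (155 ± 4.75 against 147 ± 7.19 days, mean ± SD, n = 28 and 13, adjusted p = 0.00036) and had a higher FCR (2.1 ± 0.0796 against 1.97 ± 0.103, adjusted p = 0.00036, permutation tests, two-sided, over 3 comparisons). RIN was 7.84 ± 0.496 in the Landrace and 8.12 ± 0.426 in the Duroc pigs (permutation test, adjusted p = 0.0803). Each library held 22188911 to 25954816 read pairs counted on genes, of which the 61 genes took 0.158 to 0.277%. Of the 8 muscle fibre markers, ACTA1 and CKM were matched and summed to 96900 to 180000 CPM (counts scaled to one common library total), while the 5 leukocyte markers summed to 7.68 to 62.6 CPM.

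Levels are given as CPM after TMM scaling (a factor per library that balances most genes) and are compared between pigs, not between genes, because CPM is not per length. By mean count, the best covered genes of each family were HNRNPA2B1 (10010 read pairs per pig) and HNRNPDL (2908), SRSF2 (1158) and SRSF11 (885.2), SF3B2 (1663) and SF3A1 (1637), and DDX3X (3419) and DDX39B (2231). Expression was tested for 59 of the 61 genes. DDX4, the germ cell helicase, had 0 to 3 counts in a pig and SRSF12 had 3 to 27, and both stayed below the filter on low counts. Between pigs of equal covariates the fitted biological coefficient of variation ran from 8.27% to 42.9% (DDX60, an antiviral helicase).

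The model held FCR, RIN, age, breed and batch together and was fitted to all 11146 genes that passed the filter, using the quasi-likelihood test of edgeR with Benjamini-Hochberg adjusted p-values (FDR) and a threshold of 0.1. The single pig of batch 1 is fitted exactly by its own batch term and so adds nothing directly to the other terms, but it enters the filter and the scaling. Without it 19 genes rose and 13 fell with RIN, against 16 and 16 with it (53.3% called, beside 51.7% of all genes without it). Because the genes were chosen by name, the counts are read against the share of all tested genes called in the same comparison.

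RNA integrity came with the widest change. Of the 59 genes, 32 changed with RIN, 16 upwards and 16 downwards, which was 54.2% of them against 51.8% of all genes tested. Among all genes 23.9% rose and 27.9% fell, so the number called is near the background. By family, of 14 HNRNP genes 6 rose with RIN and 1 fell, of 9 SRSF genes 3 fell and 0 rose (edgeR, 0 also at an unadjusted p under 0.05 and by limma, 1 by DESeq2), of 6 SF3 genes 1 rose and 3 fell, and the 30 DDX genes split into 9 and 9. The median coefficient was 0.05 log2 per RIN unit for HNRNP, −0.12 for SRSF, −0.14 for SF3 and 0.07 for DDX, beside −0.01 over all genes.

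**Figure D1:**
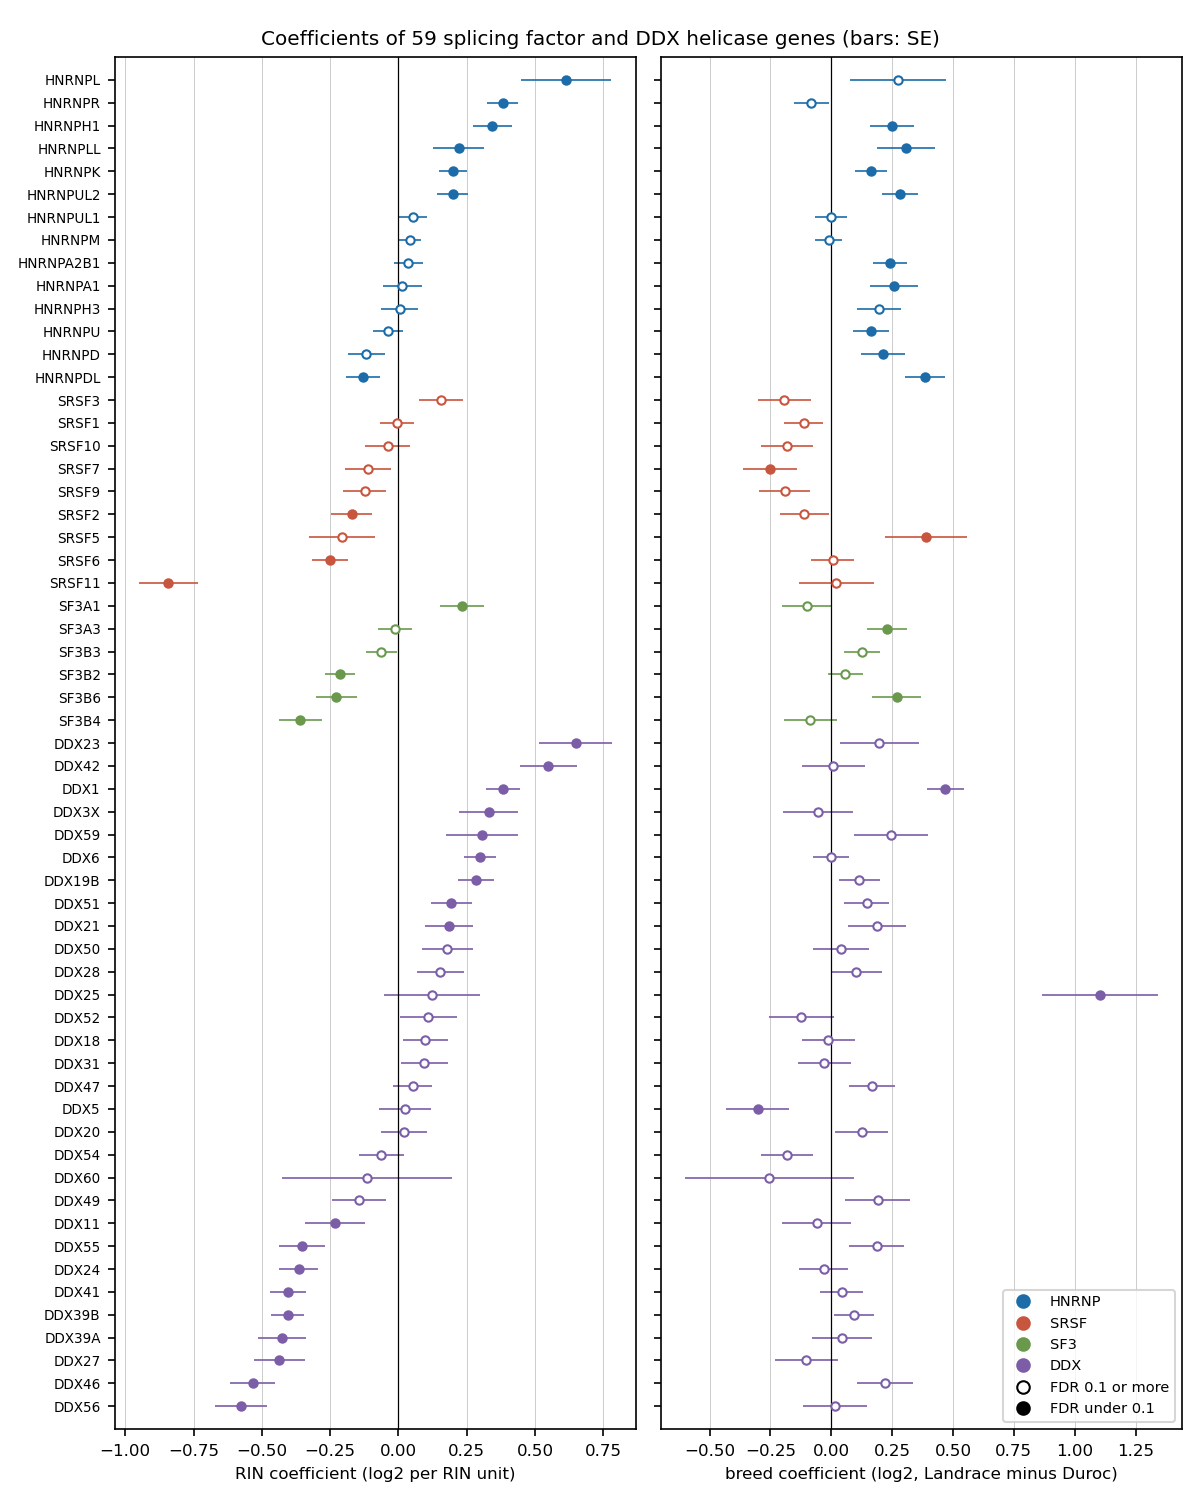
Coefficients for RIN (left, log2 per RIN unit) and for breed (right, log2, Landrace minus Duroc) of the 59 tested genes, coloured by family, with standard errors as bars and filled points for FDR under 0.1. SRSF11 lies farthest to the left for RIN (−0.84) and DDX25 farthest to the right for breed (1.1), and 9 of the 14 HNRNP genes are filled and above 0 for breed. Signs are those with TMM scaling, and many of the 59 genes turn with library size alone. SRSF11 (−0.52), DDX25 (0.92) and HNRNPDL (0.21) then keep sign and call. HNRNPA1, HNRNPA2B1, HNRNPH1, HNRNPLL and HNRNPUL2 keep the breed sign but lose the call, and HNRNPU is at −0.01.

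SRSF11, an SR-related splicing regulator (ENSSSCG00000003791, chromosome 6, 142621904 to 142668107 on Sscrofa11.1), had the steepest decline with RIN. Its level was 70.3 and 113 CPM in the pigs of RIN 6.5 and 6.6 and 101 CPM in the Duroc pig of RIN 7.0, while the 12 pigs of RIN 8.3 or more lay at 22.8 to 38.9 CPM (median 29.1). The 3 pigs of lowest RIN stood apart from all others. The coefficient was −0.84 ± 0.11 (SE) log2 per RIN unit (edgeR FDR = 1.75e-07), and −0.71 without the 2 pigs below RIN 7 (FDR = 0.0005). With the total count of the library in the model it was −0.16 (FDR = 0.541).

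Other genes that fell with RIN included several helicases of the nucleus. DDX46, the PRP5 homologue that acts when the U2 particle joins the branch point (chromosome 2, 136972504 to 137030186), fell by 0.53 ± 0.08 log2 per RIN unit (FDR = 3.5e-06), with 42.7 and 70.1 CPM in the 2 pigs below RIN 7 against 22.1 to 31.5 CPM at RIN 8.3 or more. DDX39B, a helicase of splicing and mRNA export also known as UAP56 (chromosome 7, 23658089 to 23669095), had −0.41 ± 0.06 (FDR = 2.22e-06), with 120 and 153 CPM in the 2 pigs below RIN 7 against 66.3 to 96.1 CPM at RIN 8.3 or more. DDX56, a nucleolar helicase of the large ribosomal subunit (chromosome 18, 50705613 to 50714967), had −0.58 ± 0.09 (FDR = 7.37e-06), and its 12.8 and 21.9 CPM in those pigs stood above the 6.79 to 9.81 CPM of the best preserved samples. In each of these genes the groups of low and high RIN did not overlap. The genes were picked by their p for RIN, so such a gap was likely beforehand, and its share over all genes was not counted.

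The genes that rose with RIN included HNRNPR, an RNA-binding protein of mRNA processing and transport (ENSSSCG00000023761, chromosome 6, 81203067 to 81239823). It had 19 and 17.1 CPM in the 2 pigs below RIN 7 and 26.7 to 34.3 CPM in the 12 pigs of RIN 8.3 or more, with a coefficient of 0.38 ± 0.06 (FDR = 2.08e-06). DDX1, a helicase of tRNA ligation and RNA granules (chromosome 3, 121818400 to 121856667), likewise had 42.2 and 57.9 CPM against 61.1 to 87.9 CPM, and 0.38 ± 0.06 log2 per RIN unit (FDR = 5.28e-06). Neither gene overlapped between the lowest and the highest RIN, and both were likewise picked by their p for RIN.

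**Figure D2:**
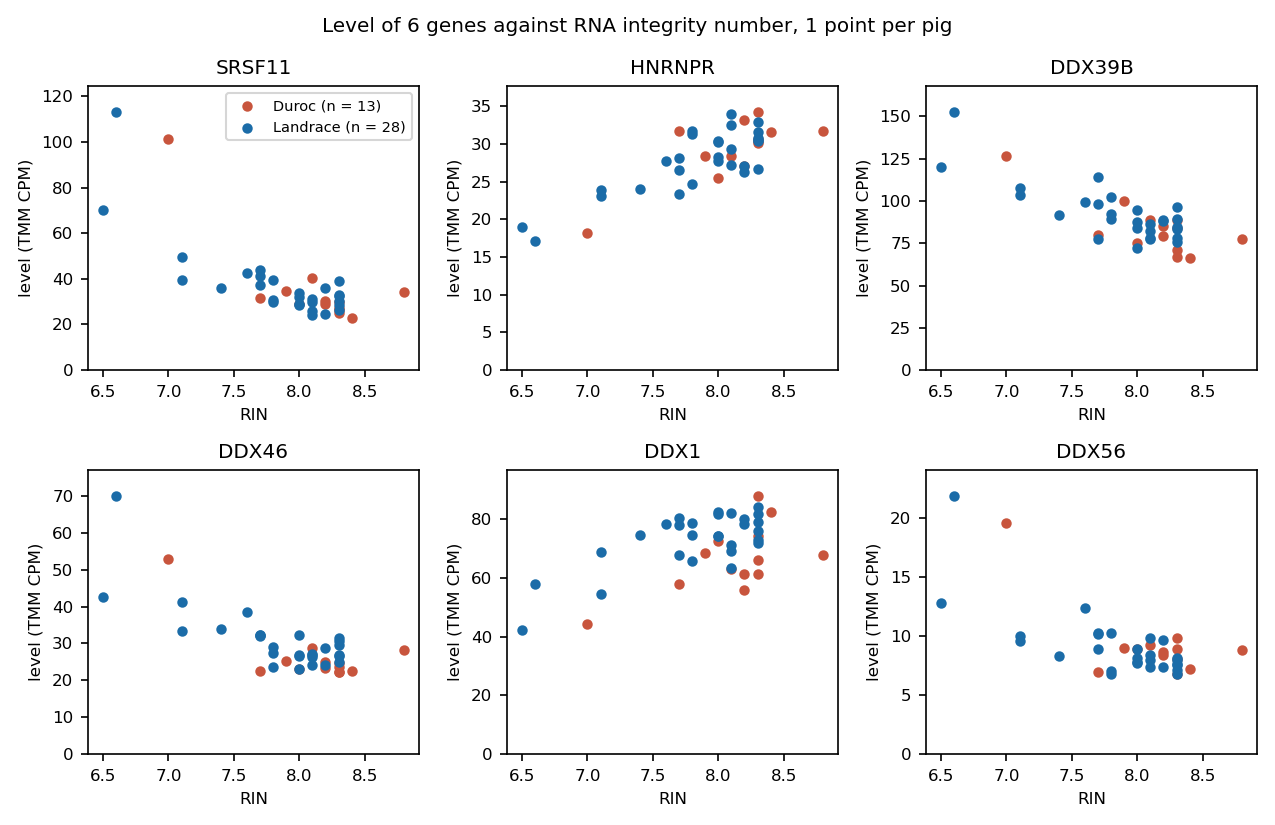
Level in CPM against RIN for the 6 genes with the smallest p for RIN, 1 point per pig, 13 Duroc and 28 Landrace. SRSF11, DDX39B, DDX46 and DDX56 are highest in the 3 pigs of RIN 6.5 to 7.0, where SRSF11 reaches 113 CPM, and HNRNPR is lowest there, as is DDX1 in the pigs of RIN 6.5 and 7.0.

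Among the best covered genes, SF3A1 (0.23 ± 0.08, FDR = 0.0165) and DDX3X, a translation helicase (0.33 ± 0.11, FDR = 0.0123), rose with RIN, and SF3B2 fell (−0.21 ± 0.05, FDR = 0.00162). SRSF2 (−0.17 ± 0.07, FDR = 0.0593) and HNRNPDL (−0.13 ± 0.06, FDR = 0.0941) passed narrowly, and with library size alone both were called in the opposite direction (0.15, FDR = 0.083, and 0.18, FDR = 0.0174). They lost the call in 18 and 32 of the 41 fits that left out 1 pig. HNRNPA2B1 had 0.04 ± 0.05 (FDR = 0.605). The coefficients of SF3A1 and SF3B2 were 0.14 (FDR = 0.276) and −0.14 (FDR = 0.107) without the 2 pigs below RIN 7, and that of SRSF2 was −0.13 (FDR = 0.326).

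The other genes called for RIN are given by role and were singled out after their values were seen. Of 9 DDX genes of splicing and export 3 rose and 4 fell, the latter being DDX39B, DDX46, DDX39A, the paralogue of DDX39B (−0.43 ± 0.09), and DDX41, a helicase and DNA sensor (−0.40 ± 0.07). DDX23 (0.65 ± 0.13), DDX42 (0.55 ± 0.10) and DDX19B, which strips proteins from exported mRNA (0.28 ± 0.06), rose. Of 14 DDX genes of ribosome biogenesis 4 fell, DDX56, DDX24 (−0.37 ± 0.07), DDX27 (−0.44 ± 0.09) and DDX55 (−0.35 ± 0.08), and DDX51 (0.19 ± 0.07) and DDX21 (0.19 ± 0.09) rose. DDX6 rose by 0.30 ± 0.06. Of the 3 DDX genes with other roles DDX59 rose (0.31 ± 0.13, FDR = 0.0536) and DDX11, a DNA helicase, fell (−0.23 ± 0.11, FDR = 0.0827). Without the 2 pigs below RIN 7 DDX59 had −0.01 (FDR = 0.977), DDX11 −0.28 (FDR = 0.173) and DDX51 0.08 (FDR = 0.548), so that these 3 lost their calls, while DDX21 had 0.34 (FDR = 0.0178).

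Within the splicing complexes SF3B4 (−0.36 ± 0.08), SF3B2 and SF3B6, which contacts the branch point adenosine (−0.23 ± 0.07), fell, that is 3 of 4 SF3B genes. SRSF6, an SR protein of exon inclusion, fell by 0.25 ± 0.07. HNRNPH1 (0.34 ± 0.07), HNRNPK, which binds C-rich RNA (0.20 ± 0.05), HNRNPL, which binds CA repeats (0.61 ± 0.16), HNRNPUL2 (0.20 ± 0.06) and HNRNPLL (0.22 ± 0.09) rose. Without the 2 pigs below RIN 7 HNRNPUL2 (0.11, FDR = 0.29), SF3B2 and SF3B6 (−0.19, FDR = 0.146) lost their calls, so that SF3B4 (−0.28, FDR = 0.0554) was the 1 SF3 gene called. Of the SRSF genes SRSF11 and SRSF6 then fell and SRSF3 rose (0.26, FDR = 0.0491). HNRNPL had as few as 6 counts in a pig.

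The signs for RIN are relative to most genes of the library. Scaled by library size alone, the median RIN coefficient of all genes moved from −0.01 to 0.30 log2 per RIN unit, 45 of the 59 genes were called, and 42 of these rose. Over all genes 7107 (63.8%) were then called and 6225 of these rose. By family 14 of 14 HNRNP genes rose and 0 fell, 6 SRSF genes rose and 1 fell, 3 SF3 genes rose and 0 fell, and 19 DDX genes rose and 2 fell, so that the SRSF and SF3 counts turned. Measured from the median of all genes, the family medians were then 0.06 for HNRNP, −0.11 for SRSF, −0.12 for SF3 and 0.08 for DDX, beside 0.06, −0.11, −0.13 and 0.08 with TMM. SRSF11, DDX46 and DDX56 fell and HNRNPR and DDX1 rose with either scaling, whereas DDX39B went from −0.41 to −0.09 (FDR = 0.135) and lost its call.

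RIN moved with the total count on genes. That count is not sequencing depth alone, because 69.9 to 80.9% of the read pairs of a library fell on genes. The Landrace pig of RIN 6.6 had both the lowest total, 22188911, and the lowest share, 69.9%. Over the 41 pigs Pearson's r between RIN and the total count on genes was 0.809 (permutation p = 1e-05, the smallest that 100000 permutations can give, and adjusted p = 1e-05 over 3 relations), Spearman's rho was 0.671 (permutation p = 1e-05), and r was 0.733 without the 2 pigs farthest from the median RIN. The summed share of the 61 genes had r = 0.757 with RIN (permutation p = 1e-05, adjusted p = 1e-05), rho = 0.569 (permutation p = 0.00012) and r = 0.68 without those 2 pigs, and r was 0.709, 0.306 and 0.881 within batches 2, 3 and 5. The share of read pairs outside genes had r = −0.732 with RIN (permutation p = 1e-05, adjusted p = 1e-05) and rho = −0.592 (permutation p = 6e-05), with r = −0.643 without those pigs and −0.807, −0.145 and −0.833 within the batches.

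For the total count the within-batch values were 0.884, 0.57 and 0.855. With the total count added to the model, 3 of the 59 genes kept an FDR under 0.1 for RIN: HNRNPK (0.26 ± 0.08), DDX6, a helicase of mRNA decay (0.28 ± 0.09), and DDX41 (−0.35 ± 0.11). Over all genes 5.84% were then called. Like SRSF11, the other 5 leading genes lost the call, with DDX39B at −0.09 (FDR = 0.575), DDX46 −0.08 (FDR = 0.749), DDX56 −0.11 (FDR = 0.712), HNRNPR 0.21 (FDR = 0.159) and DDX1 0.24 (FDR = 0.15). RIN and the total count on genes moved together, and their parts in the RIN coefficients cannot be told apart.

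Within batch 2 alone 19 of 60 genes were called for RIN and within batch 5 alone 17 of 56, which is 31.7% and 30.4% beside 27.8% and 25.6% of all genes in those fits. SRSF11 had −0.68 log2 per RIN unit in batch 2 (FDR = 0.000307) and −1.05 in batch 5 (FDR = 0.0151), and HNRNPR had 0.37 (FDR = 0.00672) and 0.50 (FDR = 0.0208). In the 13 Duroc pigs alone 0 of 57 genes passed (edgeR), as did 0 of all genes, and 13 had an unadjusted p under 0.05 (22.8%, beside 17.4% of all genes). In the Landrace pigs alone 26 of 59 passed, or 44.1% beside 42.9% of all genes. The coefficients of SRSF11 were −1.16 in the Duroc (FDR = 0.225) and −0.76 in the Landrace pigs (FDR = 1.57e-05).

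The difference of the RIN coefficient between the breeds was tested as an interaction term. It called 0 of 59 genes by edgeR and 0 by limma, beside 0.0% of all genes, and at an unadjusted p under 0.05 it held 1 of the 59 genes beside 4.85% of all genes. That gene was DDX23, the PRP28 helicase (−0.73 ± 0.29, Landrace minus Duroc, FDR = 0.947). Without the 2 pigs below RIN 7 its value was −0.99 ± 0.27 (FDR = 0.0871), the 1 call among the 59 genes (1.69%) beside 1.1% of all genes. There were then 9 of the 59 genes at an unadjusted p under 0.05 (15.3%, beside 12.6% of all genes).

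Of the 59 genes 16 differed between the breeds, 14 higher and 2 lower in the Landrace pigs, which was 27.1% of the genes against 33.1% of all genes tested. The 2 lower calls depend on the model. With FCR left out 15 were higher and 0 lower (25.4%, beside 33.8% of all genes, edgeR). With batch as a number 9 were higher and 0 lower (15.3%, beside 30.3%, edgeR). Over all genes 15.6% were higher and 17.5% lower. The HNRNP family held 9 of the 14 higher genes: 9 of its 14 members were higher in the Landrace pigs and 0 were lower (edgeR, 0 also at an unadjusted p under 0.05 and by DESeq2 and limma), with a median coefficient of 0.23 log2 against 0.00 over all genes. The 4 tested genes of the A/B and D group, HNRNPA1, HNRNPA2B1, HNRNPD and HNRNPDL, passed, while HNRNPA0, HNRNPA3 and HNRNPAB were not analysed here.

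The median breed coefficient of the SRSF genes was −0.11 log2, with SRSF5 higher (0.39 ± 0.17, FDR = 0.0889) and SRSF7 lower in the Landrace pigs (−0.25 ± 0.11, FDR = 0.0915), the only 2 of 9 called. SF3A3 (0.23 ± 0.08, FDR = 0.0407) and SF3B6 (0.27 ± 0.10, FDR = 0.0456) were higher among the 6 SF3 genes. SRSF5, SRSF7, SF3A3 and SF3B6 were singled out after their values were seen. Of the 30 DDX genes 3 passed, DDX1, DDX25 and DDX5, and 0 of the 14 that act in ribosome biogenesis (edgeR, 0 also at an unadjusted p under 0.05).

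DDX1 had the smallest p for breed. It had 44.3, 66.1 and 87.9 CPM as lowest, median and highest value in the Duroc pigs and 42.2, 74.5 and 84.1 CPM in the Landrace pigs, so that the groups overlapped and 23 of 28 Landrace pigs lay above the Duroc median. The coefficient was 0.47 ± 0.08 log2 (FDR = 3.91e-05), a 1.38-fold higher level at equal age, RIN, FCR and batch.

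DDX25, a helicase best known from the testis (chromosome 9, 53029450 to 53044088), had the largest coefficient, 1.1 ± 0.24 log2 (FDR = 0.00109). Its counts were low, 8 to 80 per pig, with 0.473, 1.06 and 1.46 CPM as lowest, median and highest value in the Duroc pigs and 0.407, 1.27 and 3.55 CPM in the Landrace pigs. The breeds overlapped, with 9 Landrace pigs above the highest Duroc pig.

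HNRNPA2B1, which binds nuclear RNA and sorts RNAs for transport (ENSSSCG00000036350, chromosome 18, 46205164 to 46215861), had 314, 355 and 409 CPM in the Duroc pigs and 306, 407 and 492 CPM in the Landrace pigs, where 27 of 28 lay above the Duroc median. Its coefficient was 0.24 ± 0.07 log2 (FDR = 0.0104). HNRNPDL, a relative of the AU-rich element binding HNRNPD (chromosome 8, 135802530 to 135809871), had 83.8, 104 and 164 CPM against 92.3, 116 and 197 CPM, with 0.38 ± 0.08 log2 (FDR = 0.000998). Both genes overlapped between the breeds.

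HNRNPUL2, a scaffold protein of the HNRNPU type, had 39, 44.7 and 49.7 CPM in the Duroc and 35, 47 and 61.2 CPM in the Landrace pigs, 11 of which lay above every Duroc pig (0.28 ± 0.07, FDR = 0.00535). For HNRNPH1, which binds G-rich RNA, the values were 44.3, 77.6 and 96.1 CPM against 51.4, 82.3 and 121 CPM (0.25 ± 0.09, FDR = 0.0368). Also higher in the Landrace pigs were HNRNPA1 (0.26 ± 0.10, FDR = 0.0481), HNRNPLL (0.31 ± 0.12, FDR = 0.0508), HNRNPK (0.16 ± 0.07, FDR = 0.0669), HNRNPD (0.21 ± 0.09, FDR = 0.0848) and HNRNPU (0.16 ± 0.07, FDR = 0.0942), of which HNRNPLL, HNRNPK and HNRNPD were named here after their values were seen.

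Of the other genes named for their counts or their RIN coefficient, SRSF11 (0.02 ± 0.16, FDR = 0.944), SRSF2 (−0.11 ± 0.10, FDR = 0.446), SF3A1 (−0.10 ± 0.10, FDR = 0.491), SF3B2 (0.06 ± 0.07, FDR = 0.601), DDX3X (−0.05 ± 0.14, FDR = 0.83), DDX39B (0.09 ± 0.08, FDR = 0.441) and HNRNPR (−0.08 ± 0.07, FDR = 0.421) did not pass for breed.

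**Figure D3:**
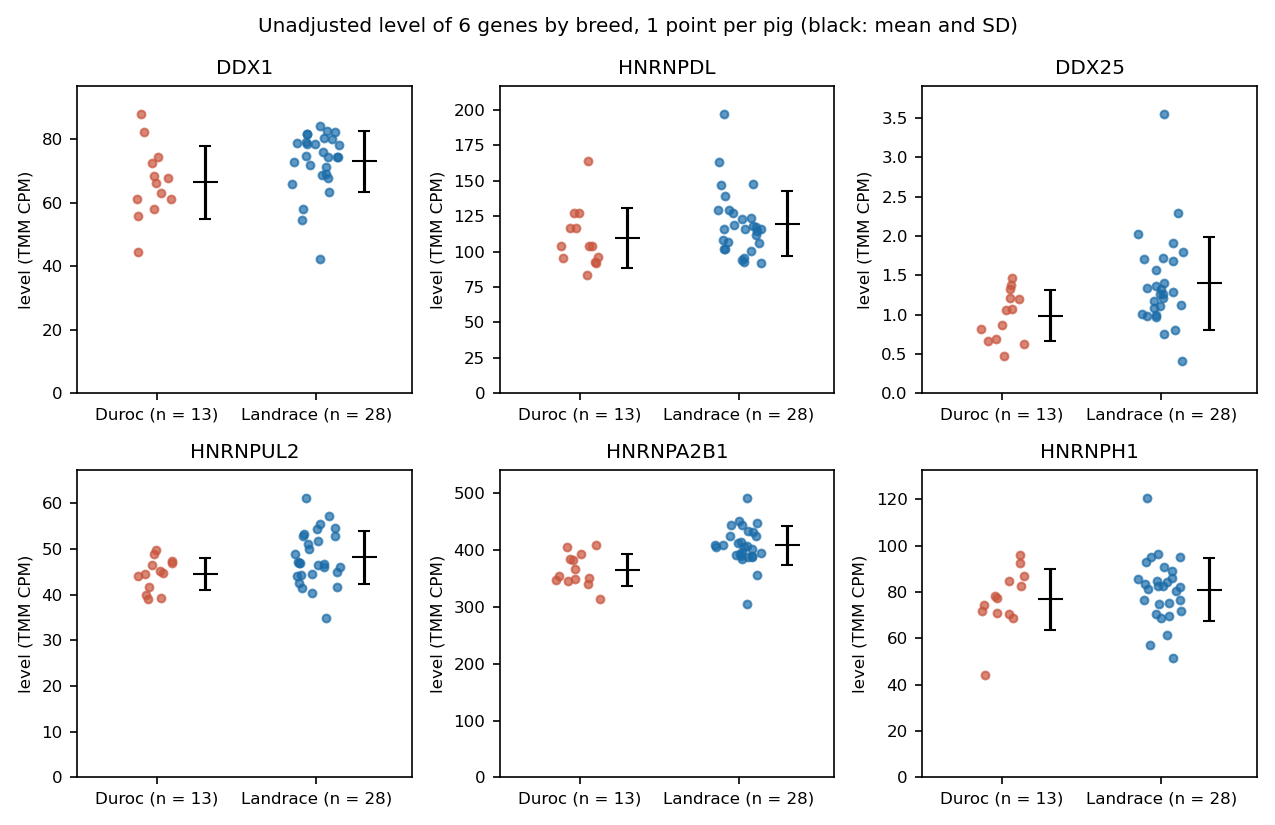
Level in CPM, before any adjustment, of the 6 genes with the smallest p for breed in 13 Duroc and 28 Landrace pigs, 1 point per pig, with the mean and SD in black. The breeds overlap in every panel, and HNRNPA2B1 has mean levels of 365 CPM in the Duroc and 409 CPM in the Landrace pigs.

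For the 6 genes with the smallest p for breed, the adjusted differences were larger than the unadjusted ones. The log2 ratio of the breed means was 0.14 for DDX1, 0.13 for HNRNPDL, 0.50 for DDX25, 0.12 for HNRNPUL2, 0.16 for HNRNPA2B1 and 0.08 for HNRNPH1. With age left out of the model, 11 genes (18.6%, beside 27.9% of all genes) passed, 6 higher and 5 lower in the Landrace pigs, and the 3 HNRNP genes among them were HNRNPA2B1, HNRNPDL and HNRNPUL2, all higher. HNRNPH1 then had 0.16 log2 (FDR = 0.164).

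With library size alone the median breed coefficient of all genes moved to −0.18 log2, and 17 of the 59 genes were called, 3 higher and 14 lower, with 1 HNRNP gene higher and 3 lower. That is 28.8% beside 37.1% of all genes, of which 534 of 4130 called were higher. Measured from that median the HNRNP family stood at 0.23 log2, as with TMM, and 11 of its 14 genes lay above it. HNRNPA2B1 (0.06, FDR = 0.616), HNRNPUL2 (0.11, FDR = 0.406) and HNRNPH1 (0.07, FDR = 0.685) lost the call, whereas DDX1 (0.29, FDR = 0.036), DDX25 (0.92, FDR = 0.00342) and HNRNPDL (0.21, FDR = 0.0503) kept it.

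When each pig was left out in turn, 10 to 18 genes passed for breed and 5 to 10 HNRNP genes were higher, with 0 lower, while 27.6 to 34.7% of all genes were called. The lowest total of 10 came without Duroc pig 5 or Duroc pig 6 (28.2% and 27.6% of all genes), and 5 HNRNP genes were higher without Duroc pig 3. In batches 2, 3 and 5 together 16 of 60 genes passed (26.7%, beside 32.1% of all genes), 15 of them higher and 10 of those HNRNP.

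Markers of other cells differed between the breeds too. All 3 matched endothelial markers were lower in the Landrace pigs: KDR (−1.48 ± 0.22, FDR = 9.52e-06), CDH5 (−0.95 ± 0.16, FDR = 3.68e-05) and PECAM1 (−1.01 ± 0.25, FDR = 0.00303). They summed to 47.8 to 145 CPM in the Duroc and 27.2 to 121 CPM in the Landrace pigs, and none was at 0. ACTA1 (0.38 ± 0.11, FDR = 0.0115) and CKM (0.24 ± 0.09, FDR = 0.0545) were higher. Of the other markers 1 of 2 adipocyte, 1 of 3 fibroblast and 1 of 2 satellite cell genes were lower, and 0 of 5 leukocyte genes passed (edgeR). Fewer cells of a type and less RNA per cell cannot be told apart in whole muscle, and the part of cell makeup in the HNRNP difference was not tested.

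Age at slaughter gave fewer calls. Only HNRNPDL passed, falling with age (−0.24 ± 0.07 log2 per 10 days, FDR = 0.0836), so that 1.69% of the genes were called beside 1.76% of all genes tested. It lost the call in 9 of the 41 fits that left out a pig. At an unadjusted p under 0.05 there were 10 of 59 genes beside 16.0% of all genes tested, and all 10 had a negative coefficient, whereas 959 of the 1778 such genes overall had a positive one. With library size alone 4 of the 59 had an unadjusted p under 0.05 (6.78%, beside 14.4% of all genes), and the median age coefficient of the 59 genes went from −0.06 to 0.00 log2 per 10 days.

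After HNRNPDL, the smallest p for age were those of DDX1 (−0.20 ± 0.06, FDR = 0.107), HNRNPA1, a shuttling splicing repressor (−0.23 ± 0.08, FDR = 0.149), DDX3X (−0.32 ± 0.11, FDR = 0.168), DDX25 (−0.52 ± 0.19, FDR = 0.176) and HNRNPU, a nuclear scaffold protein (−0.15 ± 0.06, FDR = 0.182), whose symbol RefSeq gives to a noncoding record, so that the match by symbol is uncertain. All are log2 per 10 days. DDX1, DDX25 and HNRNPDL were thus among the smallest p for both breed and age, with opposite signs. Endothelial markers moved with age too, KDR (0.72 ± 0.19, FDR = 0.0693) and CDH5 (0.45 ± 0.13, FDR = 0.0965) rising and PECAM1 at 0.46 ± 0.21 (FDR = 0.254), and their part in these values was not tested. Age and breed share much of their variation here (variance inflation 3.16 and 2.42).

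Feed conversion ratio, the trait of the study, gave no call. Of the 59 genes 0 passed by edgeR, DESeq2 or limma, beside 0.0% of all genes in edgeR. At an unadjusted p under 0.05 there were 6 genes, or 10.2% of the 59, beside 8.68% of all genes. All 6 had a positive coefficient, as did 476 of the 968 such genes overall.

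Those 6 were DDX5, a helicase and transcription cofactor also known as p68 (0.16 ± 0.05 log2 per 0.1 FCR, FDR = 0.529), SRSF10, which represses splicing when dephosphorylated (0.10 ± 0.04, FDR = 0.529), HNRNPLL, a regulator of CD45 splicing in lymphocytes (0.11 ± 0.04, FDR = 0.529), SRSF6 (0.08 ± 0.03, FDR = 0.534), HNRNPR (0.07 ± 0.03, FDR = 0.535) and the nucleolar DDX18 (0.10 ± 0.04, FDR = 0.535). DDX5 ranked 45 of 11146 genes by p. Its level was 22.9, 39.5 and 60.6 CPM (lowest, median and highest) in the Landrace and 25.7, 42.3 and 66.8 CPM in the Duroc pigs. It was lower in the Landrace pigs at equal FCR (−0.30 ± 0.13, FDR = 0.0829). That call was lost with FCR left out and with batch as a number (−0.28, FDR = 0.179). All 14 HNRNP coefficients for FCR were positive, with a median of 0.03, and 8 of 9 SRSF coefficients, with a median of 0.06, beside 0.00 over all genes.

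With library size alone the median FCR coefficient of all genes was 0.06 log2 per 0.1 FCR and that of the 59 genes 0.07, and 27 of the 59 had an unadjusted p under 0.05 (45.8%, beside 18.9% of all genes), with 0 past the FDR (edgeR). The FCR by breed term called 0 of the 59 genes by edgeR and by limma, and 0.0% of all genes. At an unadjusted p under 0.05 it held 4 genes beside 5.22% of all genes, namely HNRNPM, DDX60, DDX50 and HNRNPA1, singled out after their values were seen.

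After FCR, RIN, age, breed and batch were removed, but not the total count on genes, the genes still moved together in part. The median Pearson's r between residual log2 CPM was 0.35 over the 36 pairs of SRSF genes, 0.36 over the 15 pairs of SF3 genes, 0.08 over the 91 pairs of HNRNP genes and 0.05 over the 435 pairs of DDX genes, beside −0.01 over all pairs of tested genes. Among all 1711 pairs 8.42% had r above 0.5, beside 2.6% of all gene pairs. The points share libraries, so these values are a description over 41 pigs.

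The closest pair was DDX46 and SRSF11 (r = 0.914), which lie on different chromosomes. HNRNPD and SRSF2 (r = 0.83) and DDX24 and DDX56 (r = 0.811) came next. DDX42 and DDX56 (r = −0.726) and DDX23 and SRSF11 (r = −0.694) were the most opposed. In the Landrace pig of RIN 6.6 SRSF11 and DDX46 had 113 and 70.1 CPM, and DDX23 and DDX42 had 4.37 and 2.71 CPM. The medians of the pigs of RIN 7 or more were 31, 26.8, 13.7 and 9.56 CPM. The part of the pigs of low RIN in these r was not tested. Of neighbouring genes, HNRNPD and HNRNPDL, 34620 bases apart on chromosome 8, had r = 0.491, whereas DDX21 and DDX50, 8988 bases apart on chromosome 14, had r = −0.184.

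**Figure D4:**
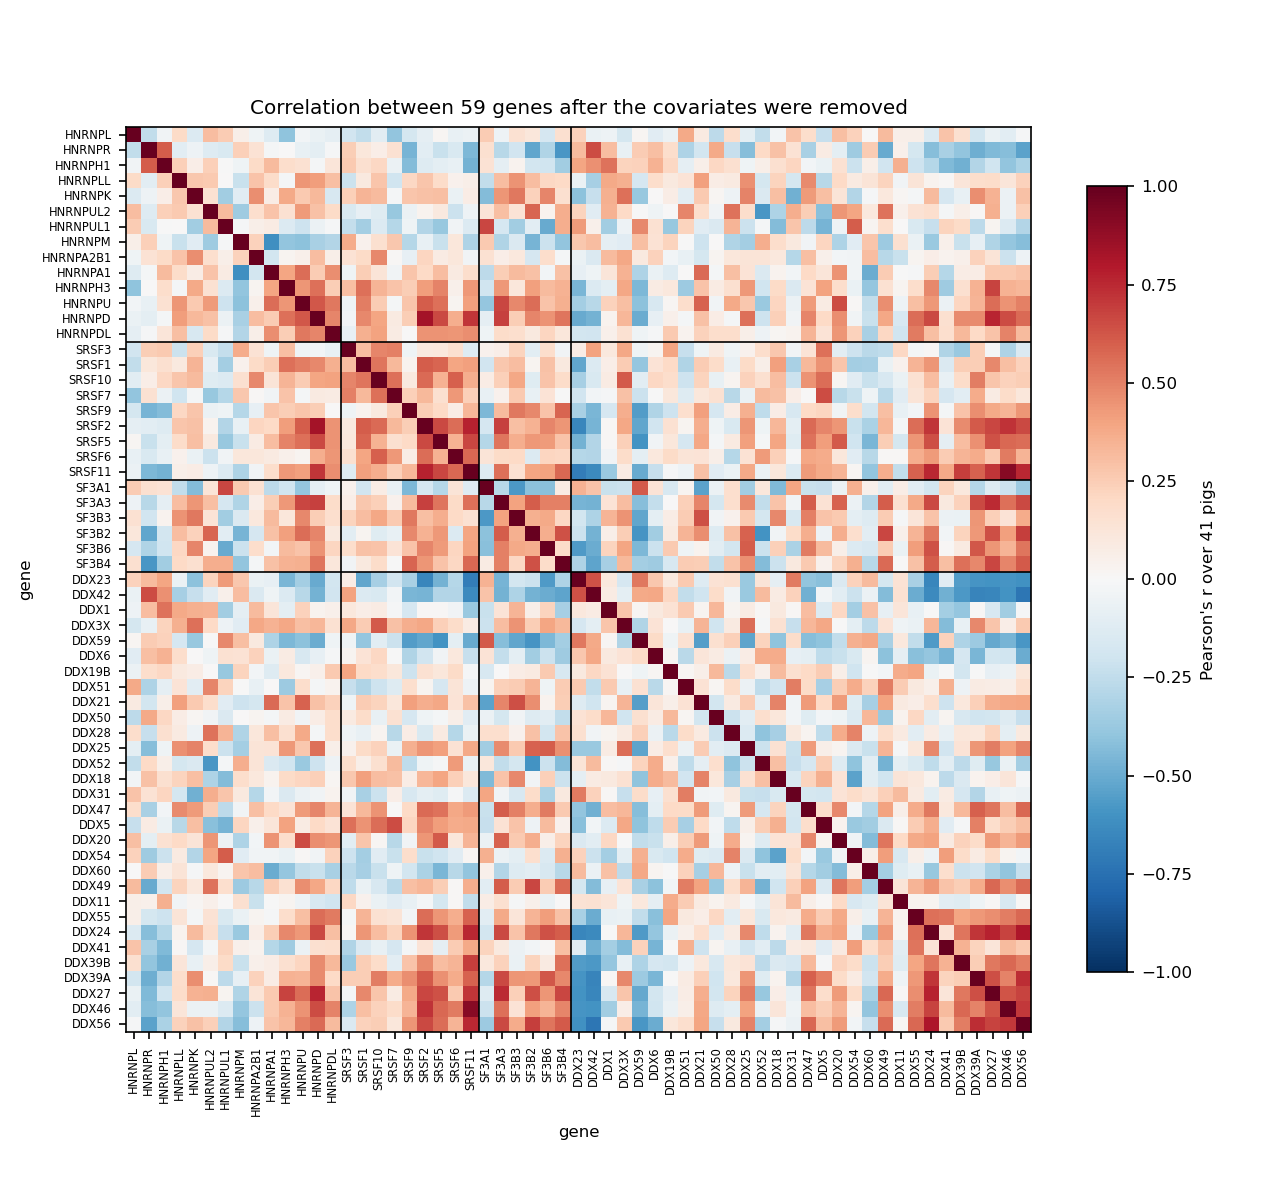
Pearson's r between the 59 genes over 41 pigs, on log2 CPM after FCR, RIN, age, breed and batch were removed, ordered by family (black lines) and within a family by the RIN coefficient. SRSF11 and DDX46 form the strongest pair (r = 0.914), and DDX23 and DDX42 have negative r with DDX56 (−0.608 and −0.726).

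Some of these values depend on the strand. Pairs in a stretch shared with a gene on the other strand are not counted for either gene in the unstranded column. Summing the 2 strand columns restores them, but adds those of the other gene. The sum exceeded the unstranded count by over 1.1 times in 8 of the 61 genes, by 6.82 times in DDX49, 3.80 in DDX11, 2.54 in DDX39A, 2.26 in DDX42 and 1.90 in DDX23, and the counts differed by at most 1% in 46.

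With the summed columns the RIN coefficient of DDX23 went from 0.65 to 0.22 log2 per RIN unit and that of DDX42, an SF3B-associated helicase, from 0.55 to 0.10 (FDR = 0.104). DDX49 went from −0.14 (FDR = 0.239) to −0.57 (FDR = 5.37e-05) and DDX11 from −0.23 to −0.42. DDX39A went from −0.43 to −0.13 (FDR = 0.061). SRSF2 went from −0.17 to −0.08 (FDR = 0.273) and so lost its call. For breed 6 of 30 DDX genes were called with the summed columns (beside 33.9% of all genes), against 3 with the unstranded one, and among the 6 were DDX11 (−0.06 to 0.30, FDR = 0.0391), DDX39A (0.04 to −0.19, FDR = 0.0693) and DDX23 (0.20 to 0.18, FDR = 0.098). DDX23, DDX42, DDX49, DDX11 and DDX39A, chosen for their ratio, cannot be measured apart from their neighbours. SRSF11, DDX46, DDX39B, DDX56, HNRNPR and DDX1 are not among the 8.

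**Figure D5:**
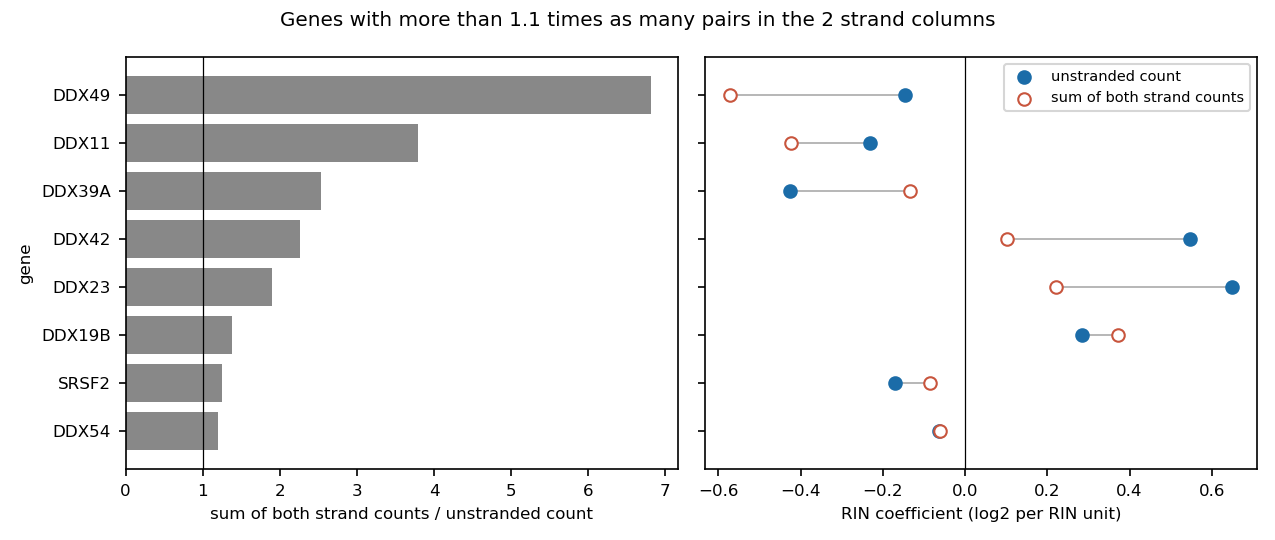
The 8 genes in which both strand columns together hold over 1.1 times the unstranded count, with that ratio (left) and the RIN coefficient from either count (right, log2 per RIN unit). The coefficients of DDX42 and DDX23 shrink to 0.10 and 0.22 and that of DDX49 widens to −0.57.

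The wider splicing machinery gave the same kind of comparison, from 153 matched genes outside the 4 families, of which 146 were tested. Genes named as first or leading in a list are those with its smallest p, not its largest coefficient. With RIN 88 changed, 27 upwards and 61 downwards, and with breed 38, of which 34 were higher in the Landrace pigs. These are 60.3% and 26.0% of the 146 genes, beside 51.8% and 33.1% of all genes, so the breed count lies below the background. Counts of these lists with library size alone stand against 6225 of 11146 genes that rose with RIN and 534 that were higher in the Landrace pigs under that scaling. Of the core proteins of the small nuclear ribonucleoproteins, 16 of 21 snRNP and LSM genes fell with RIN and 1 rose (median −0.34 log2), led by SNRPD2 (−0.75) and SNRNP25 (−0.88). Measured from the median of all genes they stood at −0.32 with library size alone, where 7 fell and 4 rose. For breed 4 were higher and 0 lower (edgeR), with LSM7 (0.42) and SNRPA1 (0.30) first.

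Among the partners of SF3 at the branch point, 7 of 9 U2AF and branch point genes fell with RIN and 1 rose, led by DNAJC8 (−0.43) and U2AF1 (−0.48). That is 88.9% called, beside 51.8% of all genes. Under scaling by library size 2 of them fell and 2 rose. PHF5A (0.25) and PUF60 (0.20) were higher in the Landrace pigs (22.2% called, beside 33.1% of all genes). Of 16 exon junction and export genes 11 fell with RIN and 1 rose (75.0% called, beside 51.8%), with THOC2 (−0.68) and SRRM1 (−0.46) first. RBM8A (0.30) and THOC7 (0.25) were higher in the Landrace pigs (12.5% called, beside 33.1%). Scaled by library size, 2 fell and 5 rose.

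The DEAH helicases, relatives of the DDX genes, remodel and take apart the spliceosome. Of 16 tested 7 rose with RIN and 0 fell (edgeR, 43.8% called beside 51.8% of all genes), and 16 rose with library size alone. First were DHX9 (0.55) and DHX15 (0.43), and DHX40 (0.33) and DHX29 (0.18) were among the 4 higher in the Landrace pigs (25.0% called, beside 33.1%). Of 27 genes of the PRPF and PRP19 complexes 6 rose and 11 fell with RIN (63.0% called, beside 51.8%), with SART3 (0.66) and CWC27 (−0.63) first. In the Landrace pigs 7 were higher (25.9% called, beside 33.1%), with PRPF18 (0.37) and EFTUD2 (0.25) first. Scaled by library size, 17 of these 27 rose with RIN and 5 fell.

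Of the 6 SR protein kinases, which phosphorylate the SRSF proteins, 3 fell with RIN, CLK2 (−0.30) and SRPK1 (−0.20) first, and with library size alone 3 rose. The TMM calls were 50.0% for RIN and 50.0% for breed, beside 51.8% and 33.1% of all genes. CLK1 (1.02 ± 0.18, FDR = 8.79e-05) and CLK4 (0.26) were higher in the Landrace pigs. Of 25 RBM genes 4 rose and 7 fell with RIN (44.0% called, beside 51.8% of all genes), RBMX2 (−0.83) and RBM27 (−0.71) first, and 5 were higher and 1 lower in the Landrace pigs (24%, beside 33.1%), RBM41 (0.41) and RBM22 (0.33) first. With library size alone 19 rose and 3 fell with RIN.

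Of 24 tissue splicing regulators 7 rose and 5 fell with RIN (50.0% called, beside 51.8% of all genes), TIAL1 (0.29) and MBNL2 (0.37) first (17 and 0 with library size alone), and 6 were higher and 3 lower in the Landrace pigs (37.5%, beside 33.1%). TIAL1 (0.40) and MBNL1, which drives adult muscle splice forms (0.55 ± 0.11, FDR = 0.000667), had the smallest p for breed, while coefficients in the list reached −0.71. Of the eIF4A helicases, the founding DEAD-box family, EIF4A2 was higher in the Landrace pigs (0.69 ± 0.09, FDR = 1.49e-06) and EIF4A1 had −0.31 (FDR = 0.111). For RIN EIF4A1 fell (−0.28, FDR = 0.025) and EIF4A2 had 0.10 (FDR = 0.23). Breed signs of these lists hold with TMM scaling, and with library size alone each of the 9 lists had as many or more genes lower than higher.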

How the data were processed

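Psoas major muscle RNA of 41 pigs was sequenced, with 1 library per pig. Per the labels and the methods of the study, reads were trimmed (Trimmomatic 0.39) by the authors and then mapped to Sscrofa11.1 by STAR 2.7.1a, which counted the pairs on each Ensembl gene. The deposited values are whole counts per gene, without normalization, in 3 columns (unstranded, and 1 for each strand), and the unstranded column was used. Pairs on more than 1 gene are left out, so overlapping and antisense genes and near-identical copies are uncertain. No 2 of the 820 pairs of libraries agreed within counting noise (lowest chi-squared per degree of freedom 18.23).

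Symbols came from a gene name table and coordinates from RefSeq (Sscrofa11.1), matched by symbol. Counts were filtered by filterByExpr (minimum count 10, minimum total 15) and fitted by edgeR 4.0.16 (quasi-likelihood, legacy form, TMM; R 4.3.3), on all genes, with 32 residual degrees of freedom. A standard error is the coefficient divided by the square root of F. DESeq2 1.42.0 and limma 3.58.1 served as alternatives. Correlations used log2(CPM + 0.5) (SciPy 1.17.1, pandas 2.3.3, NumPy 2.4.6 under Python 3.11.15), and matplotlib 3.10.9 drew the plots. Tests were two-sided, and the breed tests of RIN, age and FCR used 100000 permutations. In simulated counts a small part of the genes changed with RIN, each by more than any of the 59 genes did. No other term had an effect there. In these counts edgeR recovered 96% of the changed genes and 9.48% of its calls were false (11131 genes), against 16.3% for DESeq2 (10916 genes) and 8.74% for limma. These rates do not carry over to the data, where 51.8% of all genes were called for RIN. With no gene changed, edgeR and DESeq2 each made 1 call and limma 0.

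Breed, RIN, age, FCR and batch came from the sample labels, which give no replicate numbers, so pigs are numbered within a breed in accession order. No pig was left out. Named are the 6 genes of smallest p for RIN, breed, age and FCR and the 2 with the highest mean count of each family. HNRNPR, genes below the filter and, per partner list, the 2 genes of smallest p for RIN and for breed are also named. The members and lists were chosen with earlier results of these data known. The sum of both strand columns and leaving out each pig were added after seeing the data.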

Additional observations from a re-analysis of the deposited data

How the results depend on the processing

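For RIN the 32 genes called became 3 with the total count added, 0 in the Duroc pigs alone, 19 in batch 2 alone and 17 in batch 5 alone, and the other alternatives gave counts within 1.5 times. Leaving out 1 pig gave 26 to 33 for RIN and 10 to 18 for breed. For breed the 16 genes became 9 with batch as a number. For age the single call became 9 with batch as a number, 4 with DESeq2, 2 with limma, with DESeq2 size factors, without the 2 pigs below RIN 7, with FCR left out and in batches 2, 3 and 5, and 0 with library size alone, with no filter, with RIN left out and in either breed alone. It ran from 0 to 3 when 1 pig was left out. The RIN by breed term called 1 gene (DDX23) without the 2 pigs below RIN 7. FCR and FCR by breed called 0 of these genes in every fit run. The cause of these moves was not tested, beyond the smaller number of pigs in fits on part of them.

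Of the 469 comparisons of a named coefficient with an alternative (leaving out single pigs aside), 395 kept their sign and their side of the threshold, 57 lost the call, 13 gained it and 4 changed sign. With library size alone the RIN coefficients of HNRNPDL, SF3B2 and SRSF2 became 0.18, 0.10 and 0.15 (HNRNPDL and SRSF2 called), and with the total count added that of SRSF2 became 0.10. No paired analysis was possible because the labels carry no replicate number. Depth limits DDX25, DDX60 and HNRNPL most, with as few as 8, 4 and 6 counts in a pig.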
